A study of Rattus norvegicus with 48 samples.

Results

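The samples described here were 10 early liver nodules of the rat in which the transcript of Krt19, the keratin of bile duct and progenitor cells, was low. They were selected on the measured Krt19 log2 intensity, which had to be below 11, out of 20 nodules in a series of 48 arrays, and were compared with 10 samples of control liver. The set held nodules 6 to 10, whose titles called them negative for KRT19, and nodules 20 to 24, whose titles called them positive although their transcript was low. All rats were male F-344. The lesion model was a single injection of the carcinogen diethylnitrosamine at 150 mg/kg, 2 weeks of recovery, 1 week on a diet with 0.02% of 2-acetylaminofluorene, partial hepatectomy and 1 further week on that diet, with nodules taken at 10 weeks. The labels printed the same treatment text for every sample, and neither what the control rats received nor their age was given. No liver next to the nodules of treated rats was used here, so nodule and treatment could not be told apart. Tissue was cut by laser from frozen sections of 16 µm stained with hematoxylin and eosin, and RNA was hybridised to single-colour Illumina arrays. The labels did not tie lesions to animals, so several samples may come from 1 rat, and p-values measured only the spread between samples and may be too small.

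In this model, known as the resistant hepatocyte model, the growth of normal liver cells is blocked by the diet while hepatectomy asks the liver to regrow, and initiated cells that detoxify the drug grow into nodules. Such nodules are classically recognised by enzymes that conjugate, reduce or export foreign compounds. Many of these enzymes are targets of NRF2, a transcription factor held in check by KEAP1, which binds as a pair with a small MAF protein to a short DNA motif called the antioxidant response element. A healthy hepatocyte in turn is known for its P450 enzymes, bile acid and amino acid metabolism, fatty acid oxidation and secreted plasma proteins.

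The promoters below are shown because their start regions hold the core of that element and their genes, among the defence genes with it, were those that rose by more than 1 on the log2 scale. They were taken from RefSeq on rat assembly GRCr8, 250 bases before to 50 after the start of each gene, and capitals mark each match to TGACNNNGC on either strand. Gsta2, which rose by 0.52, held it too and is not shown. The genes were Gstp1 (chr1:210769656-210769955, minus strand), Gsta3 (chr9:31154739-31155038, plus strand), Gpx2 (chr6:101229984-101230283, minus strand), Gclm (chr2:213031885-213032184, plus strand) and Ugdh (chr14:43202268-43202567, plus strand).
Gstp1: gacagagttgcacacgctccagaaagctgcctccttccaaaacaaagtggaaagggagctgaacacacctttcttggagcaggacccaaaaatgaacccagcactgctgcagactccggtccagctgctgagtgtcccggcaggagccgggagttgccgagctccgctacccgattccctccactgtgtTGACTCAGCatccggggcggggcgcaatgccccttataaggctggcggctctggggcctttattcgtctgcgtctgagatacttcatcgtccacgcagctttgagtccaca
Gsta3: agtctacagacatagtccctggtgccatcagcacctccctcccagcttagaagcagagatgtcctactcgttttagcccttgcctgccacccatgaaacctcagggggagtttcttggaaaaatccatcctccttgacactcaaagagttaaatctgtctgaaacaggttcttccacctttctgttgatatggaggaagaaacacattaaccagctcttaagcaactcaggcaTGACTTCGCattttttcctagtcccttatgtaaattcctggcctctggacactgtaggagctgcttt
Gpx2: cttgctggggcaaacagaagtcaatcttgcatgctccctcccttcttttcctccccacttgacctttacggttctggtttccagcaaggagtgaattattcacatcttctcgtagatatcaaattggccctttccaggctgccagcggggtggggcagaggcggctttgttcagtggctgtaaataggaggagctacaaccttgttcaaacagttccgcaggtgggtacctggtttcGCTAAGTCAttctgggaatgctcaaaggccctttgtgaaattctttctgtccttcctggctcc
Gclm: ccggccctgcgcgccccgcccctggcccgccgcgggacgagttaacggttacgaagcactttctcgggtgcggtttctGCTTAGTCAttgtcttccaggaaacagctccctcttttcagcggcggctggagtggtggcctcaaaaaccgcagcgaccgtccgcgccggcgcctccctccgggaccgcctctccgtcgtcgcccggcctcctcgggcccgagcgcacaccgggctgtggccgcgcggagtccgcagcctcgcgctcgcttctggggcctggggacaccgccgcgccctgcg
Ugdh: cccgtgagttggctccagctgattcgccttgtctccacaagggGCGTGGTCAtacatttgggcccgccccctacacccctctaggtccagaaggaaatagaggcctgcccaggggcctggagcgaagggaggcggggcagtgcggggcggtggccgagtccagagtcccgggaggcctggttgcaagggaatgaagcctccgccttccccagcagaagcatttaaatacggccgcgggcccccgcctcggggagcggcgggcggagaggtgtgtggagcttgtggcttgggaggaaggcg
The match began 61 bases before the start in Gstp1, 17 before it in Gsta3 and 13 before it in Gpx2. Defence genes here are the lists of foci markers, glutathione transferases, carbonyl reduction, glutathione supply, NADPH supply and other NRF2 targets. Of 61 with a promoter in the table, 15 (24.6%) held the letters, against 4038 of all 33469 promoters (12.1%). They stood in 6 of the 23 defence genes that were higher in the nodules and in 9 of the 38 that were not. In 3 of the 15, Gstp1, Prdx1 and Me1, the match also held TGACTCA, the site of the factor AP-1. A match is a description of the sequence and not a measured site.

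The 20 arrays detected between 8323 and 10417 probes each at a detection p under 0.05, and the number of arrays limits the precision. Intensities had been quantile-normalized before deposit, so all values below are log2 of the deposited intensity and no probe's level is set against another's. A feature here is a named gene by its brightest probe or a probe without a gene name, and 10970 features passed the filter on detection. Of these, 1853 (16.9%) differed between the nodules and control liver by limma at an adjusted p under 0.05, 943 (8.6%) being higher and 910 (8.3%) lower in the nodules. The counts given for gene lists below are to be read against these shares. The median change over all features was -0.004 on the log2 scale. Without nodule 8, which had Gstp1 near the control level, 1875 features differed (17.1%), 970 (8.84%) higher and 905 (8.25%) lower. Every one of the 10 nodules lay above every control for 86 features (0.784%) and below every control for 63 (0.574%).

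Krt19 itself chose the nodules and was not tested. It lay between 7.68 and 10.60 in the 10 nodules, around a median of 9.27, and between 7.38 and 8.76 in the controls. The highest nodule inside the limit was nodule 23 at 10.60 and the lowest outside it was nodule 17 at 11.49, and the 10 nodules left outside reached 13.15. Nodules 6, 8, 20 and 22 lay inside the control range, and nodules 7, 9, 10 and 23 were above 10. All 10 hepatocyte-defining markers, including albumin (Alb), transthyretin (Ttr) and carbamoyl-phosphate synthase (Cps1), were detected in all 20 arrays. Their summed intensity was between 250038 and 290556 in the nodules and between 257632 and 292352 in control liver. Alb lay at 14.97 to 15.33 in the nodules and 14.98 to 15.35 in the controls, near 15.54, the highest log2 value of any probe. Ttr, Serpina1, Fgb and Cyp2e1 were similarly bright, and such probes weigh most in the sum. All arrays had been normalized to a shared distribution. The sums thus had little room to differ and cannot show that hepatocyte content was equal.

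The markers by which such nodules are known were among the largest rises. Of 8 foci and nodule markers tested, 7 were higher and 0 lower in the nodules, with a median change of 2.88 on the log2 scale. Gstp1, the placental form of glutathione transferase and the standard marker of rat liver foci, measured 9.84 in nodule 8 and between 14.19 and 15.48 in the other 9 nodules, against 8.14 to 9.90 in the controls. Nodule 8 thus lay inside the control range, and the other 9 lay far above it. The mean difference was 5.14 ± 0.47 (SE) on the log2 scale, or 35.3-fold (adjusted p = 6.52e-08), and 5.63 without nodule 8. A further Gstp1 probe gave 4.23. Gstp1 was within 0.5 of the highest log2 value that any probe reached, 15.54, in 2 nodules, so its fold may be understated.

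Akr7a3, an aldo-keto reductase that reduces the dialdehyde of aflatoxin, ran from 10.81 in nodule 8 to 14.41 with a median of 13.94 in the nodules, and from 9.00 to 10.57 with a median of 9.69 in the controls. No nodule overlapped the controls, although nodule 8 cleared the highest of them by little. Its mean was 16-fold higher in the nodules (4.00 ± 0.33, adjusted p = 1.97e-08). Abcc3, a pump that exports conjugates across the sinusoidal membrane, measured 8.42 in nodule 8 and 11.25 to 12.08 in the other 9, against 7.48 to 8.15 in the controls. It was 10.7-fold higher in the nodules (3.42 ± 0.29, adjusted p = 3.18e-08). Nqo1, a quinone reductase, had a lowest, median and highest value of 11.12, 12.35 and 13.58 in the nodules and of 9.27, 9.54 and 9.78 in the controls. Here nodule 8 was again the lowest of the nodules but stood clear of every control, and the mean was 6.67-fold higher (2.74 ± 0.20, adjusted p = 4.70e-09). Akr1b8, an aldose reductase-like enzyme, varied widely among the nodules, with 7.64 in nodule 8, 8.47 in nodule 22 and 10.13 to 12.57 in the other 8, against 7.27 to 7.86 in the controls. It was 8.14-fold higher on average (adjusted p = 2.65e-05). Epoxide hydrolase Ephx1 was 3.04-fold higher (adjusted p = 1.22e-06), and the export pump Abcb1b, at 1.08 ± 0.47 on the log2 scale, did not pass (adjusted p = 0.124).

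**Figure D1:**
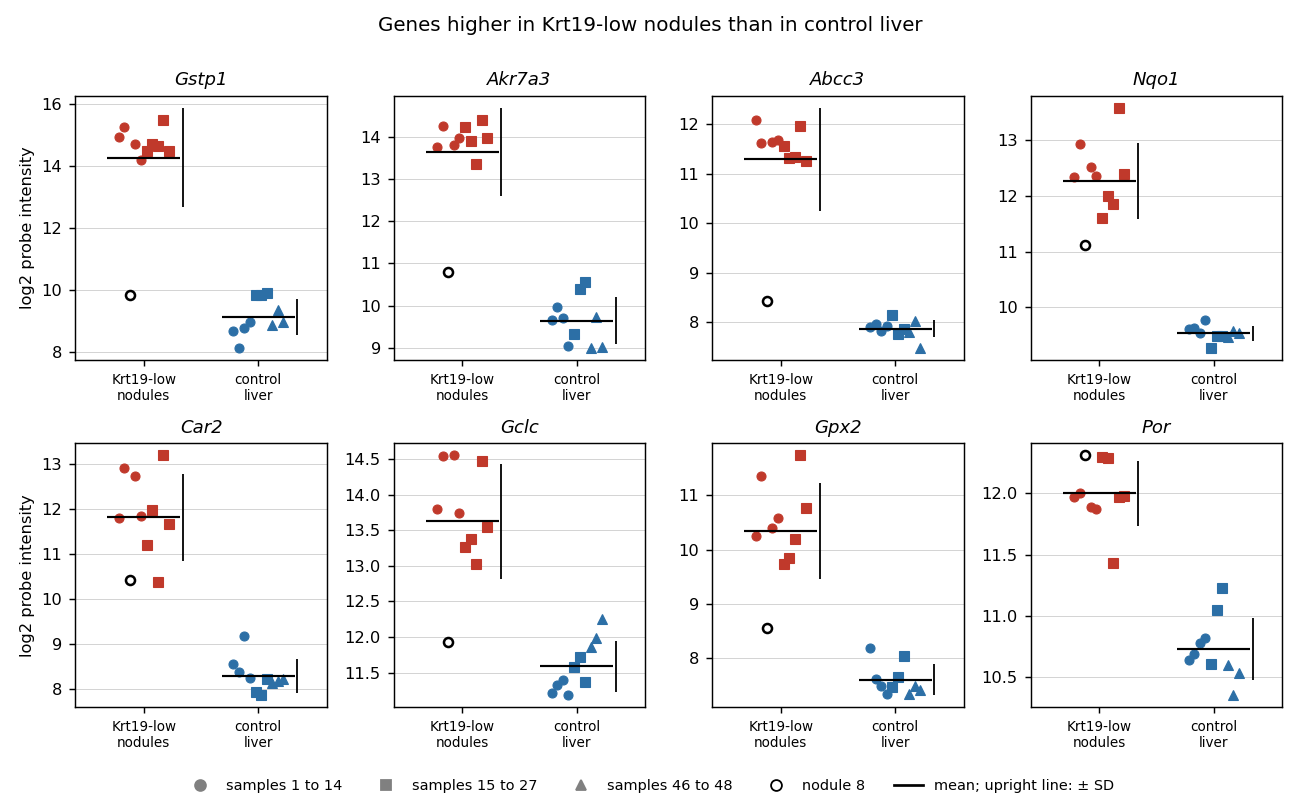
Log2 probe intensity of 8 genes in the 10 Krt19-low nodules (left) and the 10 control livers (right); each point is 1 array, its shape gives the range of sample numbers, horizontal lines are means and upright lines are ± SD. The open circle is nodule 8, which lay at 9.84 for Gstp1, inside the control range, and at 12.31 for Por, the highest of these nodules.

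The glutathione transferases, which couple glutathione to reactive compounds, split into a few that moved strongly and many that moved little. Of 19 tested, 8 were higher and 0 lower (median 0.25, against -0.004 over all features), and 9 were higher and 1, Gstm7, lower without nodule 8. Besides Gstp1, only Gsta3, an alpha-class transferase, changed by more than 1 on the log2 scale. It measured 8.06 in nodule 8 and 10.74 to 11.90 in the other 9 nodules, against 7.18 to 8.31 in the controls, of which 5 of 10 had a detected signal. The difference was 3.23 ± 0.31 (9.4-fold, adjusted p = 9.96e-08), and a fold from a control level so near background may be understated. Gstm1 (0.97), the membrane-bound Mgst2 (0.69), Gstt1 (0.66), Gsta2 (0.52), Gstt3 (0.32) and Gsta5 (0.25) also rose. Gsta1, at -0.37 ± 0.28, did not pass (adjusted p = 0.427). These genes are close in sequence, and the specificity of their probes was not tested.

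Carbonyl reduction did not move as a family. Of 18 aldo-keto and carbonyl reductases tested, 4 rose (Akr7a3, Akr1b8, Nqo1 and Akr1a1) and 4 fell, among them the steroid-reducing Akr1c2 (-0.84) and Akr1c3 (-0.77) and the quinone reductase Nqo2 (-0.26). The median was 0.11. Gene lists here overlap. Akr7a3, Akr1b8 and Nqo1 had also been counted among the foci and nodule markers, as had Gstp1 and Gclc, which stand in other lists too.

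Of 16 genes that supply glutathione and thioredoxin, 9 rose and 4 fell (median 0.31). Gclc, which catalyses the rate-limiting step of glutathione synthesis, had values of 11.93 in nodule 8 and 13.02 to 14.55 in the other 9 nodules, against 11.18 to 12.25 in the controls. It was 4.09-fold higher in the nodules (2.03 ± 0.25, adjusted p = 3.51e-06), with nodule 8 alone overlapping the controls. Its partner subunit Gclm rose by 1.17, glutathione synthetase Gss by 0.97, glutathione reductase Gsr by 0.97 and thioredoxin reductase Txnrd1 by 1.29 on the log2 scale. Gpx2, a glutathione peroxidase better known from the gut epithelium, ranged from 8.56 to 11.74 in the nodules around a median of 10.32, and from 7.34 to 8.19 in the controls. All 10 nodules were above all controls, and the mean was 6.68-fold higher (2.74 ± 0.26, adjusted p = 1.03e-07). The peroxidase of the normal hepatocyte, Gpx1, fell by 0.52 (adjusted p = 5.31e-04), and so did glutaredoxin (Glrx, -0.59), peroxiredoxin 5 (Prdx5, -0.36) and cystathionine gamma-lyase (Cth, -0.34), which makes cysteine. Of 8 genes of the pentose phosphate route and NADPH supply, 1 rose and 1 fell. The call on transaldolase Taldo1, at 0.37, was not steady, with an adjusted p of 0.0216 here and of 0.199 at the most among the settings tried. Malic enzyme Me1 at 0.63 did not pass (adjusted p = 0.0559).

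Of 9 regulators of the response tested, 3 rose and 0 fell (median 0.11). Nfe2l2, which encodes NRF2, lay between 10.98 and 12.03 in the nodules and between 11.11 and 11.54 in the controls, a difference of -0.11 ± 0.11 (adjusted p = 0.56). Keap1 differed by 0.16 ± 0.11 (adjusted p = 0.339). Neither passed, which does not show that they were equal. Mafg, a small MAF partner of NRF2, had values of 11.32 to 12.14 in the nodules and 10.40 to 11.08 in the controls. Those ranges did not touch, nodule 8 included, and Mafg was 1.62-fold higher (adjusted p = 1.37e-05). Mafk rose by 0.35. The autophagy receptor Sqstm1 rose by 0.59 at its brightest probe, but its other probes gave 0.18 and -0.08 and the adjusted p was 0.199 at the most among the settings tried.

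Among 11 other NRF2 targets, 6 rose and 1 fell (median 0.49). Ugt1a6, which attaches glucuronic acid to phenols, measured 7.83 in nodule 8, 7.93 in nodule 24 and 8.70 to 11.20 in the other 8, against 7.23 to 7.76 in the controls, of which 6 of 10 were detected. It was 4.73-fold higher (adjusted p = 3.18e-05). Ugdh, which makes the glucuronic acid donor, rose by 1.23 and the ferritin light chain Ftl1 by 0.49. The heme oxygenase Hmox1 fell by 0.49 (adjusted p = 0.0297), opposite to the 6 that rose. Aldh1a1, an aldehyde dehydrogenase that also makes retinoic acid, was 3.31-fold higher over all arrays (adjusted p = 0.00125) and is taken up again with the sets of arrays below. Of 8 ABC export pumps, 3 rose and 0 fell. Besides Abcc3 these were the sterol pump Abcg5, at 8.97 to 10.70 in the nodules and 8.00 to 9.02 in the controls (2.94-fold higher), and Abcc5 (0.35).

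Genes outside the defence lists were among the largest rises. Car2, the cytosolic carbonic anhydrase II, measured 10.38 to 13.20 in the nodules around a median of 11.82, and 7.86 to 9.18 in the controls. Every nodule was above every control, and the mean was 11.5-fold higher (3.52 ± 0.29, adjusted p = 1.97e-08). Pcp4, a small calmodulin-binding peptide of neurons, was at 7.29 in nodule 8, below all controls, and at 9.11 to 12.07 in the other 9, against 7.36 to 7.96 in the controls (6.49-fold higher, adjusted p = 2.38e-05). Defb1, an antimicrobial defensin of epithelia, had a detected signal in 8 of 10 nodules, with values up to 12.62, and in none of the controls. It was at least 4.93-fold higher in the nodules, set against the lowest detected signal of each control array (adjusted p = 0.00199). Rhbg, an ammonium transporter of the hepatocytes around the central vein, ranged from 9.49 to 10.94 in the nodules and from 7.22 to 8.91 in the controls (4.72-fold higher, adjusted p = 6.52e-08). Of the 13 genes of the perivenous list it was the only one that rose, while the calcium-binding Rgn fell by 0.47 (adjusted p = 0.00623, and 0.477 in 1 model over all 48 arrays).

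A pair of genes of drug metabolism changed in all nodules alike, nodule 8 included. Por, the reductase that passes electrons to every microsomal P450, measured 11.43 to 12.31 in the nodules and 10.35 to 11.23 in the controls (2.41-fold higher, adjusted p = 3.18e-08). Nr1i3, the nuclear receptor CAR that senses foreign compounds, measured 11.23 to 11.84 in the nodules and 9.56 to 11.15 in the controls (2.34-fold higher, adjusted p = 2.06e-05). For both, the groups did not overlap. Of 23 genes of the list of drug-metabolising P450 enzymes and their partners, Por and Nr1i3 were the 2 that rose, and 5 fell (3 rose and 4 fell without nodule 8). The 5 were Cyp3a9 (-1.17), Cyp3a23-3a1 (-0.90), Cyp2f4 (-0.57), Cyp3a18 (-0.47) and Cyp2d1 (-0.42). The ethanol-oxidising Cyp2e1 at 0.05 ± 0.07 and the caffeine-oxidising Cyp1a2 at -0.28 ± 0.22 did not pass (adjusted p = 0.649 and 0.446).

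The 10 largest falls took in enzymes, an adhesion molecule, signalling genes and Hbb-b1, a beta-globin gene of blood cells (9.13 to 10.84 in the nodules and 10.84 to 13.19 in the controls, 3.59-fold lower, adjusted p = 9.42e-06). Aox3, an aldehyde oxidase, measured 7.10 to 10.26 in the nodules, the highest being nodule 8, and 10.20 to 11.51 in the controls (5.4-fold lower, -2.43 ± 0.26, adjusted p = 6.65e-07). Nodule 8 alone overlapped the controls. Cdh17, an adhesion molecule of liver and intestine, had 7.69, 10.02 and 11.69 as its lowest, median and highest value in the nodules and 11.99, 12.32 and 12.55 in the controls. All nodules were below all controls, and the mean was 5.04-fold lower (adjusted p = 4.84e-06). Irs3, an adaptor of insulin signalling in rodents, had the smallest spread among nodules of the 10 largest falls: 7.67 to 8.10 in the nodules, against 9.02 to 10.69 in the controls (4.07-fold lower, adjusted p = 6.62e-09). Nodule 8 at 8.06 stood with the others here. Angptl4, a fasting-induced inhibitor of lipoprotein lipase, measured 8.45 to 9.64 in the nodules and 10.08 to 11.62 in the controls (4.4-fold lower, adjusted p = 4.70e-09), although its dimmer probe gave only -0.44. Rgs3, a regulator of G protein signalling, was 4.31-fold lower, the acid nuclease Dnase2b 3.73-fold lower and the fatty acid binding protein Fabp7 3.53-fold lower, each with all 10 nodules below all 10 controls. Gimd1 gave a detected signal on 2 of 10 nodule arrays and 10 of 10 control arrays, with values of 7.21 to 7.67 in the nodules and 7.69 to 9.80 in the controls.

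**Figure D2:**
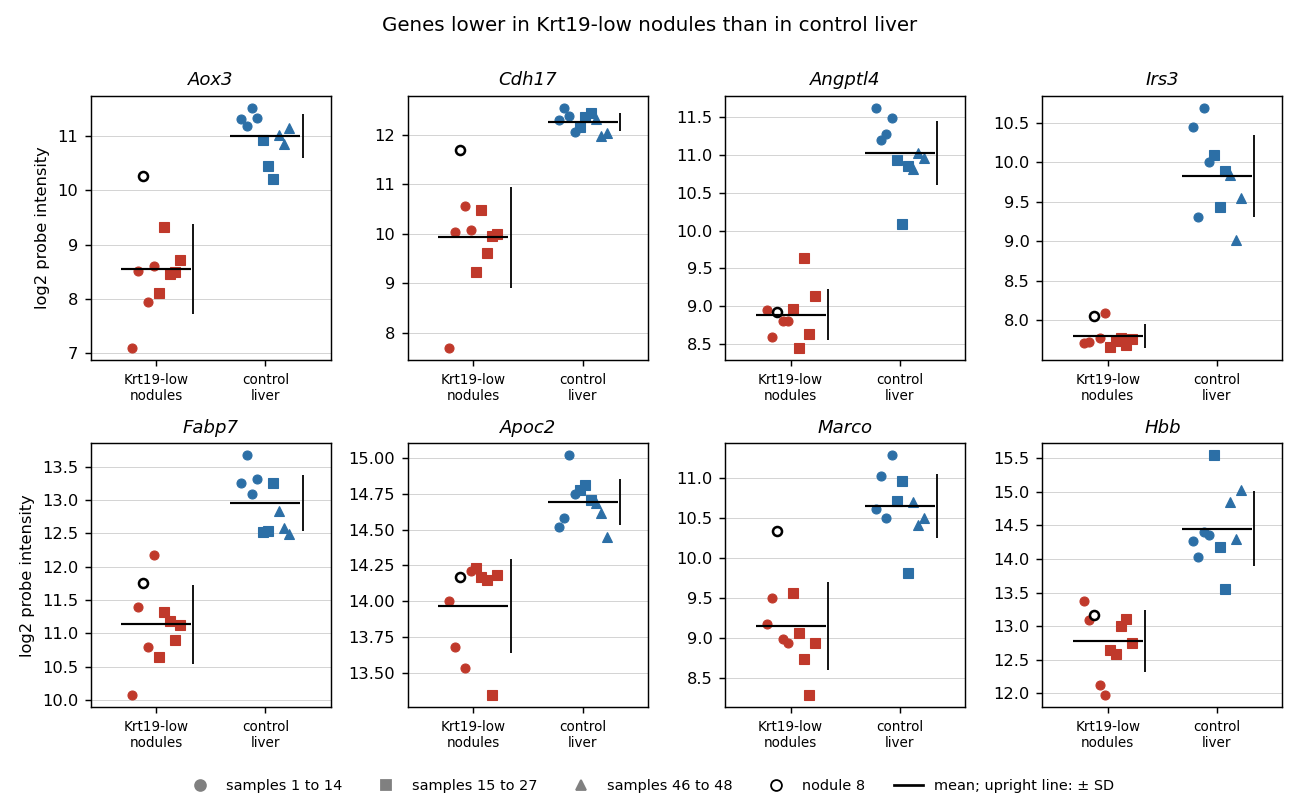
Log2 probe intensity of 8 genes that were lower in the 10 Krt19-low nodules (left) than in the 10 control livers (right), drawn as in the plot of the genes that rose. Irs3 lay between 7.67 and 8.10 in all nodules, and nodule 8, the open circle, was the highest nodule for Aox3, Cdh17 and Marco.

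Genes set by growth hormone, whose male pattern of release shapes the male rat liver, had 19 members tested, of which 8 fell and 1 rose (median -0.30), where 8.3% of all features were lower and 8.6% higher. Within the sets 5 and 3 fell, 2 of them in both. Obp3, an odorant-binding lipocalin, had values of 8.99 to 12.59 in the nodules and 12.24 to 14.58 in the controls (4.31-fold lower, adjusted p = 6.44e-04). Controls 11 to 14 held its highest values, at 13.72 to 14.58, and controls 46 to 48 its lowest, at 12.24 to 12.46. The male-typical P450 Cyp2c11 fell by 0.97, the growth hormone receptor Ghr by 0.52 and the feedback inhibitor Socs2 by 0.85 on the log2 scale. The only gene of the list that rose, Cyp2c12 (1.45 ± 0.42, adjusted p = 0.0185), is the female-typical P450 of the rat.

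Bile acid synthesis and transport showed 7 falls and 1 rise among 16 genes (median -0.24). Cyp7b1, a hydroxylase of the alternative route, fell by 0.96 (adjusted p = 0.0018), and Cyp8b1, which makes cholic acid, by 0.59. Slc27a5, the ligase that readies bile acids for conjugation, measured 13.19 to 14.54 in the nodules and 14.38 to 14.88 in the controls, a fall of 0.84 (adjusted p = 2.85e-05), with nodule 8 again the one nodule among the controls. The bile acid receptor FXR, encoded by Nr1h4, fell by 0.65, and its target Nr0b2, a repressor of bile acid synthesis, rose by 0.83. Cyp7a1, the rate-limiting enzyme, at 0.47 ± 0.27 did not pass (adjusted p = 0.278).

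Fatty acid oxidation and targets of the receptor PPAR-alpha gave 12 falls and 1 rise among 25 genes (median -0.17), where 8.3% of all features were lower and 8.6% higher. Most of the calls within the sets by sample number, described below, came from the first. There 11 fell and 1 rose, against 4 and 2 in the second, with 2 falls in both. The medians were -0.33 and -0.24, and the change was lower in the first set for 5 genes by the test of the difference. Besides Angptl4, the omega-hydroxylases Cyp4a2 (-0.94), Cyp4a8 (-0.93) and Cyp4a3 (-0.68) and the kinase Pdk4 (-0.90), which spares glucose, fell by more than the mitochondrial enzymes Hadh (-0.47), Hadha (-0.41) and Acadm (-0.34). The receptor Ppara at -0.02 ± 0.06 and the gatekeeper Cpt1a at 0.12 ± 0.17 did not pass (adjusted p = 0.878 and 0.712), and Acaa2 rose by 0.32. For Cyp4a2 the adjusted p was 0.00798, and 0.142 at the most among the settings tried. Of 15 genes of fatty acid and triglyceride synthesis, 1 rose (the desaturase Scd2, 0.79) and 3 fell (2 rose and 3 fell without nodule 8), among them Agpat2 (-0.50). Of 14 genes of cholesterol synthesis, 0 rose and 6 fell, all by less than 0.6 (2 rose and 5 fell without nodule 8), among them squalene synthase (Fdft1, -0.43) and Sc5d (-0.51).

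Amino acid catabolism gave 11 falls and 2 rises among 30 genes (median -0.20). Histidine ammonia-lyase (Hal) had values of 8.89 to 10.19 in the nodules and 9.87 to 11.00 in the controls, and was 2.07-fold lower (adjusted p = 2.89e-05). The glyoxylate-clearing Agxt fell by 0.86, kynureninase Kynu by 0.67 and the methyl-group buffer Gnmt by 0.57. Serine dehydratase Sds, which turns serine into pyruvate, went the other way, at 11.98 to 14.21 with a median of 13.52 in the nodules and 9.83 to 12.51 with a median of 11.73 in the controls (3.8-fold higher, adjusted p = 2.96e-04). Arginase Arg1 also rose (0.58), while the other urea cycle genes Cps1 (0.01), Ass1 (0.03), Asl (-0.11) and Otc (-0.18) did not pass. Of 20 genes of glucose metabolism, 2 rose and 1 fell, close to the 16.9% called over all features: the glycolytic aldolase Aldoa (0.55) and isomerase Gpi (0.54) were higher, and lactate dehydrogenase Ldha (-0.46) was lower. The adjusted p of Aldoa was 0.00167, and 0.0997 at the most among the settings tried.

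Of 19 genes for albumin, apolipoproteins and carriers, 0 rose and 6 fell (median 0.09). Apom, the carrier of sphingosine phosphate, measured 10.93 to 12.24 in the nodules and 12.15 to 12.80 in the controls, a fall of 0.97 (adjusted p = 3.77e-06), and Apoc2, the activator of lipoprotein lipase, lay wholly below the controls, at 13.34 to 14.23 in the nodules and 14.45 to 15.02 in the controls (1.65-fold lower, adjusted p = 4.48e-05). Alb at 0.01 ± 0.06 and Ttr at 0.13 ± 0.08 did not pass (adjusted p = 0.965 and 0.301), and both lay close to the top of the intensity scale. Of 31 complement and coagulation genes, 0 rose and 5 fell, in all close to the 16.9% called over all features. The lectin Mbl2 (-0.60) and C6 (-0.57) were among the 5. The sets by sample number, described below, did not share these calls. In the first set 0 rose and 5 fell, in the second 3 rose and 3 fell, and 0 were called alike in both. The change was lower in the first set for 5 genes by the test of the difference. C6 changed by -0.65 and -0.075 and Mbl2 by -0.58 and -0.81, in the order of the sets. In 1 model over all 48 arrays, with the same contrast, adjusted p reached 0.191 for Apoc2, 0.106 for Mbl2, 0.278 for C6, 0.13 for Scd2 and 0.23 for Slc27a5.

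**Figure D3:**
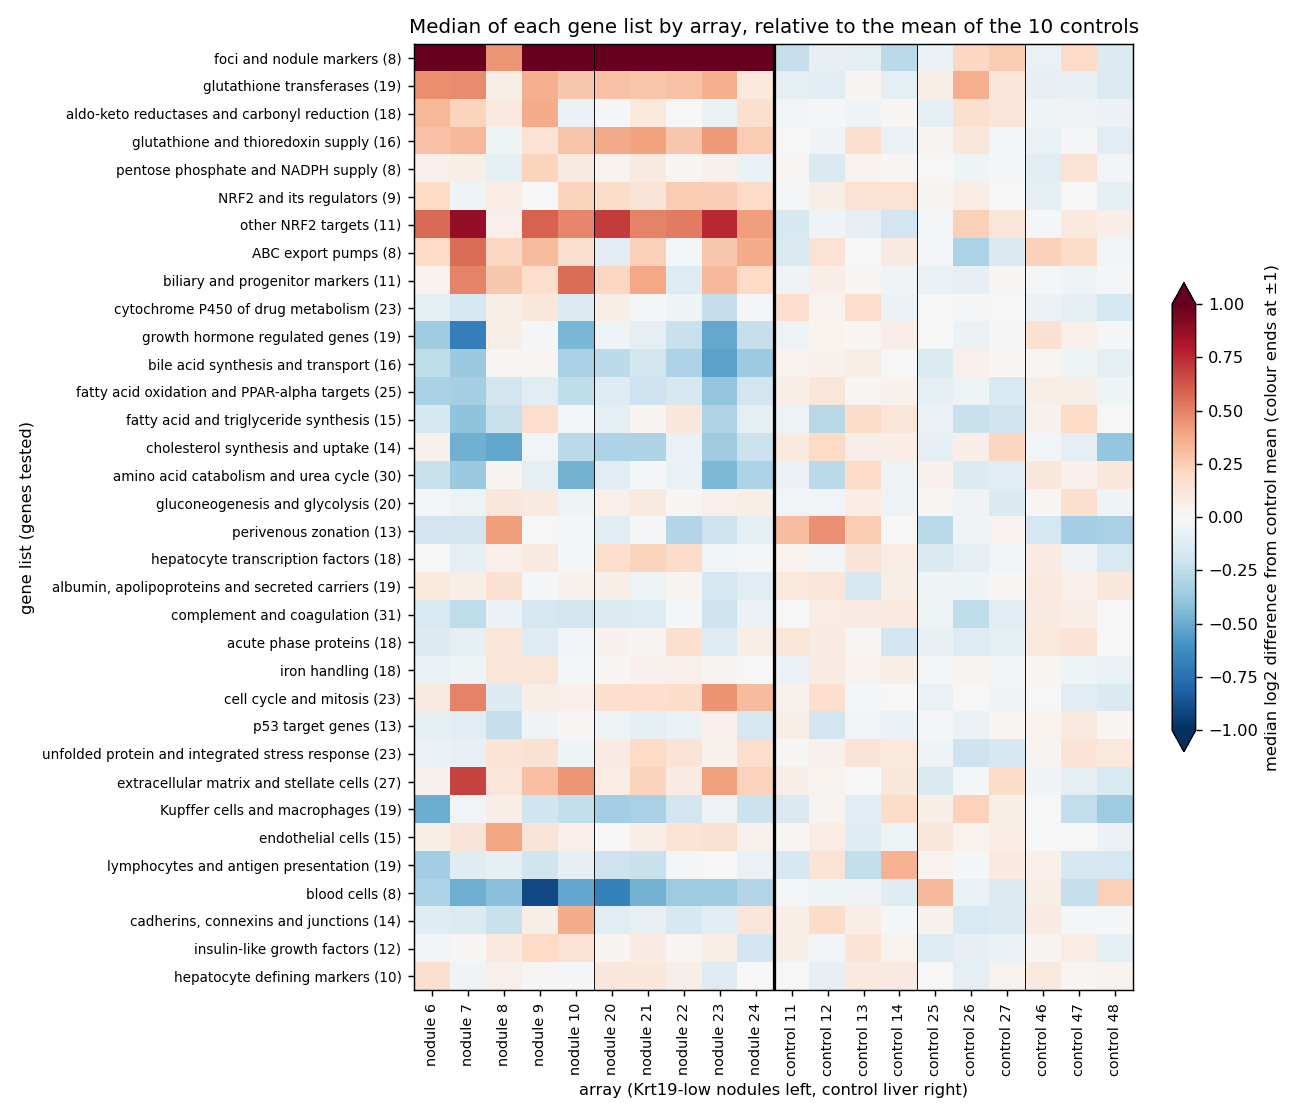
Colour gives the median log2 difference of each of 34 gene lists from the mean of the 10 controls, by array, with nodules in the left 10 columns and controls in the right 10; the number of genes tested stands in brackets after each list. The foci and nodule markers had medians between 1.95 and 4.08 in 9 nodules and of 0.445 in nodule 8.

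Genes of other cell types moved with these changes, and their part in the results was not tested. In bulk tissue, fewer cells of a type and less RNA per cell cannot be told apart. The marker sums add intensities before the log, so the brightest probes of a list weigh most in its sum. Such a sum is not a measure of how many cells of a type were present. Of 8 blood cell genes tested, 4 fell and 0 rose, and the summed intensity of the 15 blood markers on the array was between 11627 and 29039 in the nodules and between 33930 and 95615 in the controls, without overlap. Besides Hbb-b1, the beta-globin Hbb had values of 11.97 to 13.37 in the nodules and 13.56 to 15.54 in the controls (3.18-fold lower, adjusted p = 3.67e-06), and the alpha-globin Hba-a1 fell by 1.38. The neutrophil and precursor markers S100a9, Elane and Ngp were detected in none of the 20 arrays. Of 19 Kupffer cell and macrophage genes, 6 fell and 0 rose (median -0.20), and their summed intensity was between 18771 and 28952 in the nodules and between 21489 and 35174 in the controls. Marco, a scavenger receptor of Kupffer cells, measured 8.28 to 10.34 in the nodules, with nodule 8 the highest, and 9.82 to 11.29 in the controls (2.84-fold lower, adjusted p = 6.95e-06). Vsig4, the complement receptor of resident Kupffer cells, fell by 0.82 (adjusted p = 1.96e-04, and 0.0672 at the most among the settings tried) and the haemoglobin scavenger receptor Cd163 by 0.62, while the complement subunits C1qa, C1qb and C1qc, made by macrophages in general, lay between -0.09 and 0.04 and did not pass.

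Matrix genes were higher in part. Of 27 genes of matrix and stellate cells, 9 rose and 1 fell (median 0.27), and the summed intensity of the 30 on the array was between 31630 and 45088 in the nodules and between 28895 and 40695 in the controls. Collagen Col1a2 measured 10.89 to 12.27 in the nodules and 9.72 to 10.82 in the controls (2.21-fold higher, adjusted p = 1.15e-05), and Col3a1 measured 9.41 to 10.26 in the nodules and 8.15 to 9.08 in the controls (2.01-fold higher, adjusted p = 2.07e-06). For both collagens every nodule was above every control. Col4a1 of basement membranes rose by 0.78, whereas Col1a1 at 0.27 ± 0.11 and the stellate cell markers Des (0.08) and Dcn (0.09) did not pass, and Reln, a glycoprotein made by stellate cells, fell by 0.53. Col6a2 and Thbs2 were detected in no array. Of 15 endothelial genes, 3 rose and 1 fell, with sums of 8020 to 10116 in the nodules and 7340 to 8922 in the controls, and Cdh5 and Robo4 detected in no array. Of 19 lymphocyte and antigen presentation genes, 0 rose and 4 fell, with sums of 59938 to 91336 in the nodules and 51622 to 85315 in the controls, and Cd5, Ms4a1 and RT1-A2 detected in no array.

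Biliary and progenitor markers other than Krt19 rose in part. Of the 10 others tested, 3 rose and 1 fell, the sum of the 15 on the array, Krt19 included, was between 7655 and 13173 in the nodules and between 6327 and 14116 in the controls, and Krt23 was detected in no array. Cd24, a surface protein of progenitor cells, measured 7.95 to 10.54 in the nodules and 7.69 to 8.51 in the controls (2.41-fold higher, adjusted p = 6.59e-04), and Epcam, an epithelial adhesion molecule of the same cells, was 1.97-fold higher (adjusted p = 2.17e-04). Prom1 was detected in 4 of 10 nodules and 0 of 10 controls, at least 1.07-fold higher. The fetal albumin homologue Afp, widely used as a marker of liver tumours, was at 10.04 to 11.04 in the nodules and 10.69 to 11.13 in the controls; its difference of -0.29 had an adjusted p of 0.0386, which was above 0.05 under 15 of the other settings and 0.542 at the most. The simple-epithelium keratin Krt8, shared by hepatocytes and bile ducts, was higher in all nodules than in any control, at 13.21 to 14.43 in the nodules and 12.56 to 13.02 in the controls (2.08-fold higher, adjusted p = 5.56e-07). Of 23 genes of the cell cycle tested, 5 rose and 0 fell (median 0.17), with cyclin Ccnb2 the largest, at 7.68 to 10.39 in the nodules and 7.62 to 8.96 in the controls (0.85 ± 0.23, adjusted p = 0.0122, and 0.303 at the most among the settings tried). The replication factor Pcna at 0.03 and the mitotic kinase Aurka at -0.08 did not pass.

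Nodule 8 stood apart from the other 9 in some of these genes and not in others. To place each nodule without using it, the genes were called in the fit that left it out. Of the 970 features called higher without nodule 8, nodule 8 was above every control for 403 (41.5%), against 12.9% of all features. For each of the other nodules in its own such fit, that share was between 50.8% and 71.6%. Over the 32 defence genes among those 970, nodule 8 exceeded every control for 8, and its median shift from the control mean was 5.66% of the change in the other nodules, while over all 970 features the median shift was 55.3% and over the 905 features called lower it was 66.2%. In the other 9 nodules the median shift over defence genes was between 89.2% and 158%. Nodule 8 thus had Gstp1, Gsta3, Akr1b8 and Pcp4 inside or below the control range, Nqo1 and Car2 above it but lowest or next to lowest among nodules, and Por (12.31), Mafg (11.32), Nr1i3 (11.23), Krt8 (13.21) and Irs3 (8.06) on the nodule side of every control. Its Krt19, at 8.51, was inside the control range.

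The nodules came in a pair of sets by sample number, each with controls numbered next to them, and labels did not say whether the numbers mark a shared day or chip. In the set of samples 1 to 14, nodules 6 to 10 differed from controls 11 to 14 in 1598 features (14.6%), 769 (7.01%) higher and 829 (7.56%) lower. In the set of samples 15 to 27, nodules 20 to 24 differed from controls 25 to 27 in 1806 (16.5%), 950 (8.66%) higher and 856 (7.8%) lower. No array was shared between them, but both were tested in 1 fit over all 20 arrays, the controls outside both sets included. Each gene's residual spread was therefore the same in both tests, and the calls of the sets were not independent. Of 509 features called in both sets, 418 changed in the same direction and 91 in opposite ones, the 418 being 26.2% of the calls of the first set and 23.1% of those of the second. Across all features the changes of the sets had a Pearson r of 0.389 and a Spearman rho of 0.21, as a description over genes, which are not independent.

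Of the 10 largest rises, 9 passed in both sets, and so did 9 of the 10 largest falls. These genes were picked as the largest changes over the same arrays. Passing within the sets was thus favoured by the choice and is no separate test. Defb1 (adjusted p = 0.0918 by limma) and Obp3 (-1.36, adjusted p = 0.0802 by limma, against -3.48 in the first set) did not pass in the second. Gstp1 changed by 5.15 in the first set and 4.91 in the second. In the same order of sets, Akr7a3 changed by 3.72 and 3.87, Nqo1 by 2.62 and 2.88, Car2 by 3.36 and 3.68, Por by 1.27 and 1.03, Irs3 by -2.24 and -2.08, and Cdh17 by -2.31 and -2.47 on the log2 scale. All of these passed in both sets by limma, and all 7 foci and nodule markers that rose over all arrays rose in each set. Those 7 had likewise been called over arrays that include both sets. The difference between the sets itself passed for 920 features (8.39%), 403 (3.67%) with the change higher in the first set and 517 (4.71%) with it lower. That count was 172 when all 10 controls served both sets, and 0 by limma (898 at an unadjusted p under 0.05) when controls 11 and 12 served the first set and controls 13 and 14 the second, a setting with both other and fewer controls. Ddx6, an RNA helicase, measured 11.33 to 12.12 in nodules 6 to 10 and 11.82 to 12.15 in nodules 20 to 24, against 11.58 to 11.93 in controls 11 to 14, 8.94 to 9.42 in controls 25 to 27 and 11.50 to 11.94 in controls 46 to 48. Controls 25 to 27 alone were low. Akr1c12, an aldo-keto reductase, was at 14.59 to 15.35 in nodules 6 to 10 and 14.43 to 15.45 in nodules 20 to 24, against 14.98 to 15.32 in controls 11 to 14, 12.15 to 13.21 in controls 25 to 27 and 13.39 to 14.75 in controls 46 to 48. Here too controls 25 to 27 were the lowest. A further Akr1c12 probe differed by -0.22 between nodules and controls over all arrays.

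Aldh1a1 was at 12.34 to 14.48 in nodules 6 to 10 and 13.59 to 14.67 in nodules 20 to 24, against 10.48 to 11.82 in controls 11 to 14, 12.59 to 13.71 in controls 25 to 27 and 12.32 to 13.15 in controls 46 to 48. Its change was 2.72 in the first set and 0.72 in the second, a difference of 2.00 (adjusted p = 0.0263 by limma). Bcl6, a transcriptional repressor set by growth hormone in male liver, differed between the nodule sets themselves, at 9.21 to 10.90 in nodules 6 to 10 and 7.67 to 8.14 in nodules 20 to 24, against 8.18 to 10.25 in controls 11 to 14 and 8.99 to 10.53 in controls 25 to 27. Onecut1, a hepatocyte and biliary transcription factor, was at 9.79 to 11.37 in nodules 6 to 10 and 11.46 to 12.65 in nodules 20 to 24, against 10.70 to 12.93 in controls 11 to 14 and 9.18 to 11.95 in controls 25 to 27. For both genes the nodule sets did not overlap with each other. The Krt19-high nodules were split by sample number in the same way. Bcl6 was at 8.54 to 9.62 in nodules 1 to 5 and 7.62 to 7.77 in nodules 15 to 19. Onecut1 was at 8.86 to 9.83 in nodules 1 to 5 and 10.12 to 11.64 in nodules 15 to 19.

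**Figure D4:**
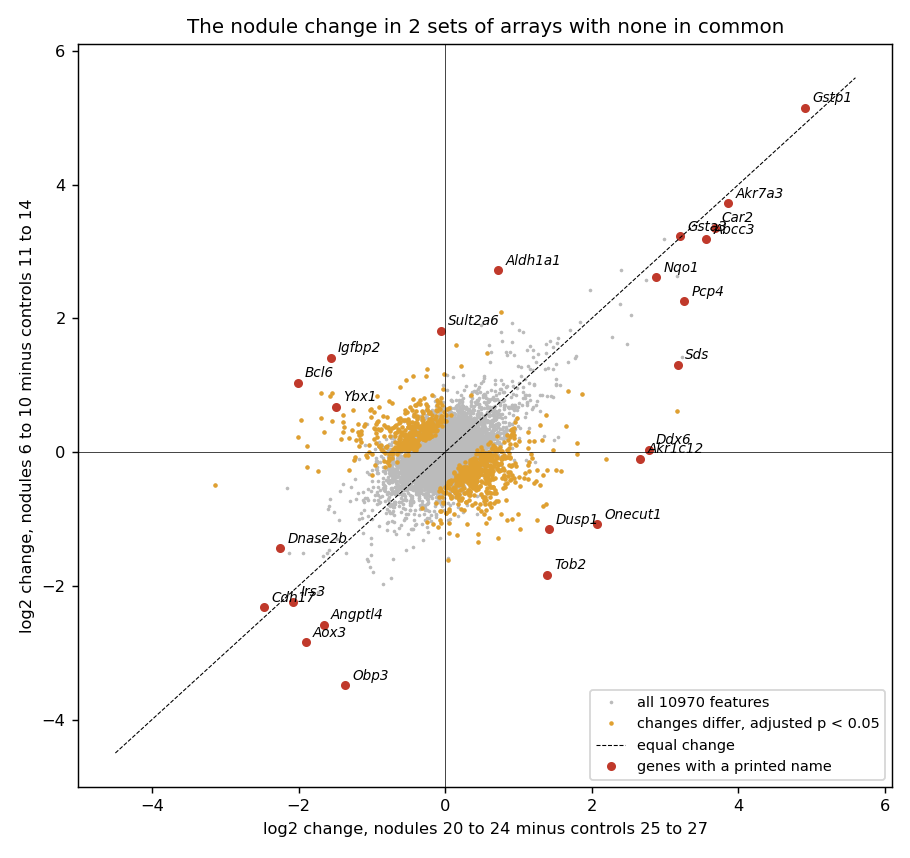
Log2 change of each of 10970 features in nodules 6 to 10 minus controls 11 to 14 (vertical) against nodules 20 to 24 minus controls 25 to 27 (horizontal); the dashed line marks equal change and orange points are the 920 features whose changes differed. Gstp1, at 5.15 and 4.91, and the other foci markers lie near the line, and Ddx6, Akr1c12, Onecut1, Tob2, Bcl6 and Igfbp2 lie off it.

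Against the 10 nodules with high Krt19, the comparison follows the choice of members and is given as values only, with no test. Of 74 genes named by rule that differed from control liver, the median of the Krt19-low nodules lay between those of the Krt19-high nodules and control liver for 60. The 74 were picked for their change against control liver, and the share over all features was not counted. The count therefore describes these genes only. Nqo1 measured 11.12 to 13.58 in Krt19-low nodules, 13.56 to 14.27 in Krt19-high nodules and 9.27 to 9.78 in control liver. Gclc was at 11.93 to 14.55 in Krt19-low nodules, 14.90 to 15.34 in Krt19-high nodules and 11.18 to 12.25 in control liver. Akr1b8 was at 7.64 to 12.57 in Krt19-low nodules, 13.20 to 14.26 in Krt19-high nodules and 7.27 to 7.86 in control liver. Slc27a5 and Apom had the opposite order. Slc27a5 measured 13.19 to 14.54 in Krt19-low nodules, 10.65 to 13.10 in Krt19-high nodules and 14.38 to 14.88 in control liver, and Apom 10.93 to 12.24 in Krt19-low nodules, 9.36 to 11.04 in Krt19-high nodules and 12.15 to 12.80 in control liver. Sds was among the other 14. It measured 11.98 to 14.21 in Krt19-low nodules, 10.03 to 12.71 in Krt19-high nodules and 9.83 to 12.51 in control liver, with its highest values in the Krt19-low ones. Por (11.43 to 12.31 in Krt19-low and 12.05 to 12.84 in Krt19-high nodules), Nr1i3 (11.23 to 11.84 in Krt19-low and 11.15 to 11.88 in Krt19-high nodules) and Irs3 (7.67 to 8.10 in Krt19-low and 7.44 to 7.70 in Krt19-high nodules) overlapped between the kinds of nodule. The median difference of Krt19-low minus Krt19-high nodules was 0.56 within samples 1 to 14 and 0.59 within samples 15 to 27 over the 23 P450 list genes. It was 0.62 and 0.80 over 30 genes of amino acid catabolism, 0.52 and 0.57 over 31 complement and coagulation genes and -1.55 and -1.17 over 8 foci markers, each on the log2 scale and in the same order of sets, where all features had medians of -0.002 and 0.021.

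**Figure D5:**
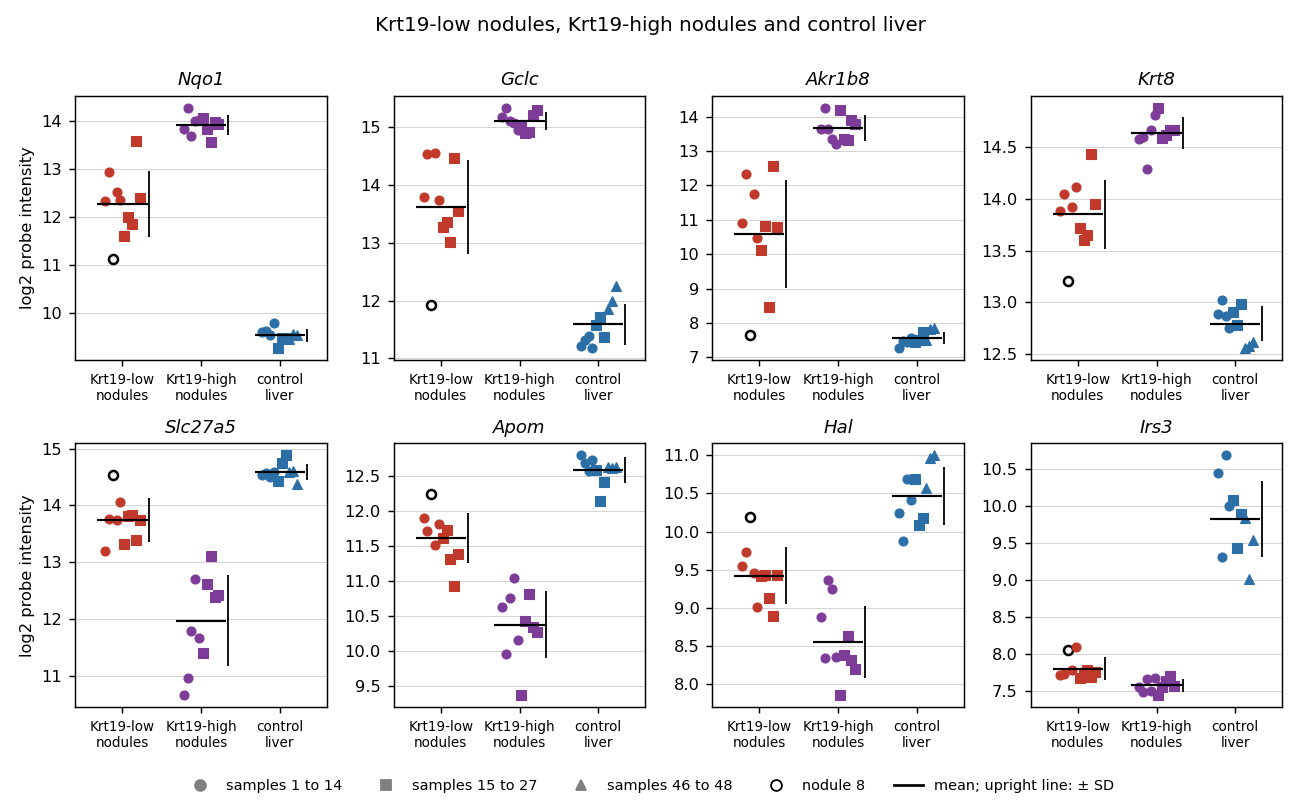
Log2 probe intensity of 8 genes in 10 Krt19-low nodules (left), 10 Krt19-high nodules (middle) and 10 control livers (right), drawn as in the plot of the genes that rose. Nqo1 lay between 11.12 and 13.58 in the Krt19-low nodules, against 13.56 to 14.27 in the Krt19-high nodules and 9.27 to 9.78 in control liver.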

How the data were processed

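Per the submitters' processing notes the arrays were read with BeadStudio 3.0.19.0, and the authors deposited 1 intensity and 1 detection p-value per probe and array. Although called non-normalized, the deposited intensities shared 1 distribution, with medians of 159.0 to 159.6 over 48 arrays, so quantile normalization had been applied; background had not been subtracted, the lowest value being 96.8, which shrinks folds of dim genes. A second deposited table was identical and was not used. Raw intensities before normalization were not used here. Intensities were turned into log2 values with no further normalization. The design had assumed raw intensities and neqc; since the values were normalized, normexp with an offset of 50 was kept as an alternative.

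Of 22523 probes, 11126 had a detection p under 0.05 in at least 4 of the 20 arrays. Of all probes, 13793 had 1 gene symbol, 0 several and 8730 none, and 13752 matched RefSeq GRCr8 by gene identifier. The brightest probe stood for a gene, giving 7836 genes and 3134 unnamed probes. Nodules minus control was fitted with limma 3.58.1 in R 4.3.3 (lmFit, eBayes, 2 groups of 10, no block), with Benjamini-Hochberg adjustment over 10970 features at 0.05. Sets by sample number were fitted as cell means, and labelled Krt19 groups over 30 arrays. On simulated data of 10970 features the fit recovered 97% of 100 genes changed by 1 and 100% of 100 changed by 2 on the log2 scale, and it called 11 unchanged genes. The simulation drew independent values around 1 control mean per gene, with no differences between sets of samples. Its recovery and false calls therefore may not hold for these arrays, whose controls differed between sets. Correlations between arrays were between 0.954 and 0.9952, and no pair of arrays was alike.

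The members, the 34 gene lists and the tests were chosen with earlier results of these data known. Genes were named by rule: 10 fixed genes, the 10 largest rises and falls called with and without nodule 8, the 2 largest called changes of each list, and the 5 largest differences between sets in each direction; further list members and their values were chosen after being seen. Alternatives were other filters, normexp, eBayes with trend, array weights, blocks of sample numbers, all 48 arrays, averaged probes, left-out controls and leaving out each array. Detection in at least 4 of 48 arrays and 10 shared controls for both sets were added after seeing the data.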

Additional observations from a re-analysis of the deposited data

Results flagged for a closer look

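For each named gene, a single array was tested for standing far from the rest, among the 10 nodules and among the 10 controls. Of 170 such groups, 16 had an array that did, where chance flags about 1 in 20. Nodule 8 stood apart from the other nodules below for Gstp1 (9.84), Akr7a3 (10.81), Abcc3 (8.42), Gsta3 (8.06) and Aldh1a1 (12.34), all in log2 intensity. Other nodules stood apart in 1 gene each: nodule 21 was high for Rgs3 (9.23), nodule 23 high for Taldo1 (14.28), nodule 22 low for Por (11.43) and nodule 7 low for Rgn (12.06).

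Among the controls, control 27 was high for Krt19 (8.76) and control 48 high for Pcp4 (7.96) and low for Egfl7 (7.36). Control 26 was low for Angptl4 (10.08) and Mafg (10.4), and control 25 low for Scd2 (7.49) and Col3a1 (8.15).

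The change against the matching controls differed between nodules 6 to 10 and nodules 20 to 24 by limma's test of the difference at an adjusted p under 0.05 for 11 named genes, the 10 with the largest such differences by rule and Angptl4. The difference was more negative in nodules 6 to 10 for Tob2 (-3.22), Onecut1 (-3.15), Akr1c12 (-2.76), Ddx6 (-2.75), the phosphatase Dusp1 (-2.57) and Angptl4 (-0.92), and more positive for Bcl6 (3.05), the growth factor binding protein Igfbp2 (2.98), the RNA-binding Ybx1 (2.17), Aldh1a1 (2.00) and the sulfotransferase Sult2a6 (1.88). Angptl4 was lower than its controls in both sets, at -2.58 and -1.66. Igfbp2 measured 8.33 to 10.63 in nodules 6 to 10 and 7.87 to 8.44 in nodules 20 to 24, against 7.71 to 8.09 in controls 11 to 14 and 8.22 to 10.94 in controls 25 to 27. The part of the controls in these differences was measured only by the counts with other controls, and their cause was not tested.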

How the results depend on the processing

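The count of features that differed between nodules and control liver was 1853 and lay between 1382, with all 48 arrays in 1 model, and 2288, with array weights. The features called changed more than the count. Of the 1853, 1046 were called in the same direction with sets of 12 sample numbers as a block and 1231 with all 48 arrays. Without controls 25 to 27 it was 1335, and without controls 46 to 48 it was 1340. Of 74 named genes called, 47 kept their direction and their call under every alternative tried, the single arrays left out included; the other 27 kept their direction and lost the call under at least 1, 19 of them with all 48 arrays in 1 model, 14 with sets of 12 sample numbers as a block and 11 without controls 46 to 48. Leaving out 1 array moved the count within samples 1 to 14 (1598) between 1058, without control 13, and 1836, and the count within samples 15 to 27 (1806) between 981, without control 26, and 1632, with 1040 without control 27. With controls 11 and 12 only, the first count was 1001, and with controls 13 and 14 in place of 25 to 27 the second was 505. The count of differences between sets (920) was 0 with these controls and 172 with all 10 controls for both. Named genes that were not called over all arrays changed sign in some settings: leaving out 1 array gave a lowest and highest value of -0.151 and 0.27 for Onecut1, -0.382 and 0.011 for Dusp1 and -0.024 and 0.445 for Igfbp2. With sets of 12 as a block, Onecut1 was -0.237, Akr1c12 -0.039, Ybx1 0.015 and Bcl6 0.05; without controls 25 to 27, Onecut1 was -0.405 and Ybx1 0.044; Dusp1 was 0.024 with the sets of sample numbers as a block, 0.055 with array weights and 0.049 without controls 46 to 48. The difference between sets turned to -0.989 for Aldh1a1, 0.066 for Akr1c12, -0.139 for Sult2a6 and -0.037 for Ybx1 with sets of 12, and to -0.143 for Aldh1a1 and -0.017 for Sult2a6 with all 10 controls. The cause was not tested. Genes near background or near the top of the scale may have understated folds. No paired analysis was possible because the sample numbers in the titles run once through the series and no number is shared between groups.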

Other observations

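Hepatocyte transcription factors moved both ways: of 18 tested, 4 rose and 3 fell (median 0.07). Besides Nr1i3 and Nr0b2, the clock genes Nr1d1 (0.96 ± 0.22, adjusted p = 0.00283) and Dbp (0.31) were higher in the nodules. Nr1d1 measured 9.78 to 10.39 in the nodules and 7.89 to 10.21 in the controls, so the controls were the more spread. The pioneer factors Foxa1 (-0.59) and Foxa3 (-0.55) fell, and Hnf4a, at 0.07 ± 0.10, did not pass (adjusted p = 0.676). The insulin-like growth factor list gave 2 rises and 3 falls among 12: the binding proteins Igfbp1 (0.97) and Igfbp7 (0.85) rose and Igf2 was detected in 0 of 10 nodules and 7 of 10 controls, at least 1.13-fold lower in the nodules. Of 14 junction genes 3 rose, among them the connexin Gjb2 (0.68), and 4 fell, among them the claudins Cldn1 (-0.73) and Cldn2 (-0.62) of the tight junction. Among the 10 hepatocyte-defining markers, 0 rose and 1 fell, the tyrosine-degrading Hpd (-0.36, adjusted p = 0.023).

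The acute phase list had 18 genes tested, of which 2 rose and 4 fell (median 0.00): the lipopolysaccharide-binding Lbp (0.88) and Orm1 (0.38) were higher, and serum amyloid P (Apcs, -0.47), with all 10 nodules below all controls, and hepcidin (Hamp, -0.43) were lower. Of 18 genes of iron handling 3 rose and 3 fell, with the hepcidin co-receptor Hjv at -0.57 (adjusted p = 4.37e-04). Of 13 p53 targets 1 rose (Ddit4, 0.54) and 3 fell, among them Phlda3 (-0.57, adjusted p = 0.00147), an inhibitor of AKT. Of 23 genes of the unfolded protein and integrated stress response, 5 rose and 0 fell, and 3 rose and 2 fell without nodule 8. The serine-synthesising Phgdh, detected in 8 of 10 nodules and 1 of 10 controls, rose by 0.96 (adjusted p = 0.00102) and Herpud1, of protein degradation at the endoplasmic reticulum, by 0.60. Mitochondrial transhydrogenase Nnt differed by -0.31, the lymphocyte gene Nkg7 by -0.51 and the endothelial genes Vwf and Egfl7 by 0.54 and 0.39, each with the call lost under at least 1 other setting. The same held for Nr1d1, Igfbp1, Hpd, Lbp, Hjv and Ddit4.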
